A study of Mus musculus with 31 samples.

Results

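Pdk4, Angptl4, Acot1, Acot2, Cidea, Ucp3 and Cpt1b are 7 genes of muscle fuel use that peroxisome proliferator-activated receptors (PPARs) are known to regulate. They were 7 of the 39017 gene identifiers counted, and were chosen by their measured response to a high-fat diet in wild-type males, so that comparison is described here without a test. The sex and genotype comparisons that use the same wild-type male libraries are described without a test too. The tissue was the gastrocnemius, a calf muscle, of wild-type mice and of mice without MuRF1, a ubiquitin ligase of muscle whose gene is Trim63. Males and females of each genotype ate chow or, from 8 weeks of age, a lard diet with 45% fat, and muscle was taken at 30 weeks. Each combination of sex, genotype and diet forms 1 of 8 groups, and each group held 4 libraries, except the high-fat knockouts of each sex with 3. The knockout is described in the labels only as MuRF1 -/-, with no named Cre or promoter, and the labels give each library its own animal number, so libraries were taken as separate animals.

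PPARs bind DNA with retinoid X receptors and are activated by fatty acids. In muscle, fasting, exercise and fat feeding raise free fatty acids, and PPAR target genes then shift the tissue from glucose to fat oxidation. Pdk4 is a textbook marker of that shift: its kinase inactivates pyruvate dehydrogenase and so holds back glucose carbon from the mitochondrion.

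Each library was grouped by the animal number of its count file. In 19 of the 31 records the animal numbers of title and description differ. Of the 30 grouped libraries, 4 have a record title that gives another group: replicate 3 of the high-fat male knockouts, and replicate 4 of the chow female knockouts and of the female wild types on each diet. Counts of members called are given below with the record titles as groups, and without these 4, where they differ by over 1.5 times. Trim63 stood at 107.3 to 271.2 CPM (the count as a share of the library total, scaled by TMM, a correction for library composition) in the 16 wild-type libraries and at 0.487 to 7.75 in the 14 knockouts. The male-expressed Ddx3y and the female-expressed Xist matched the sex of all 30. The record titles of the 4 libraries each give the genotype that their Trim63 level goes against. That of replicate 3 of the high-fat male knockouts also gives the other sex. Myofibre markers summed to 117970.8 to 223027.5 CPM, and total counts ran from 9342028 to 14919379. In bulk RNA, fewer cells of a type and less RNA per cell cannot be told apart.

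RefSeq's promoter table (build GRCm38.p6) held a window for 4 of the 7 genes. The 250 bases before RefSeq's start were searched. They are shown for Pdk4, Acot2 and Ucp3, the best-covered of those 4, without the bases that lie inside the GENCODE gene (31 for Pdk4, 0 for Acot2 and 1 for Ucp3) and with each copy of the receptor hexamer AGGTCA in capitals.
Pdk4 promoter, chr6:5496310-5496528, minus strand: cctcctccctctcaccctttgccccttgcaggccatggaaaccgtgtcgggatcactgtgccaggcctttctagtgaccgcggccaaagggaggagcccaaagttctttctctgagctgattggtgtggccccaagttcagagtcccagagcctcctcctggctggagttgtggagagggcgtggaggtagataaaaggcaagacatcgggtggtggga
Acot2 promoter, chr12:83987611-83987860, plus strand: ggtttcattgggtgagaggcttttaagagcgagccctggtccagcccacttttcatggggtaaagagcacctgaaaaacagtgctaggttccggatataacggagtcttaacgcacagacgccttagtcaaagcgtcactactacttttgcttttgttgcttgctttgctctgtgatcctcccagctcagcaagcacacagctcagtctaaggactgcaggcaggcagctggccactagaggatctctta
Ucp3 promoter, chr7:100472741-100472989, plus strand: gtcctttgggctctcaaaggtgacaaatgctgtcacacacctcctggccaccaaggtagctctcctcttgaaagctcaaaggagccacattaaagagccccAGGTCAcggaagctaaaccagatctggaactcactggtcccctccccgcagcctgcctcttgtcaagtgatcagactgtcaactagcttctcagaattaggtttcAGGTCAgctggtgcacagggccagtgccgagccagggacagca
The hexamer was searched on both strands and stood 2 times in the Ucp3 window, at positions 102 and 207 from its 5' end, on the plus strand of the gene. It was in neither the Pdk4, the Acot1 nor the Acot2 window, and 14.0% of 32851 such windows held it. The repeat that PPAR pairs favour, AGGTCANAGGTCA, was in none of the 4 windows and in 0.0335% of all. A looser form, AGGNCANAGGNCA, was in none of the 4 and in 0.338% of all. The forkhead site TGTTTAC was also in none of the 4 and in 3.17% of all. These are matches of letters and not bound sites.

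Levels of the 7 genes differed widely. Per kilobase of exon, the mean CPM in male wild type chow was 349.9 for Pdk4 and 49.6 for Ucp3. On the same scale it was 9.88 for Acot2, 3.25 for Angptl4, 1.55 for Cidea, 0.756 for Cpt1b and 0.67 for Acot1. Raw counts per library were 1464 to 20385 for Pdk4 and 630 to 3215 for Ucp3. They were only 1 to 51 for Acot1, 2 to 36 for Cidea and 15 to 60 for Cpt1b. All 7 genes passed the low-count filter, but Cidea did so with 0 of the 4 female wild type chow libraries at the filter's 0.791 CPM, so its differences rest on few reads.

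**Figure D1:**
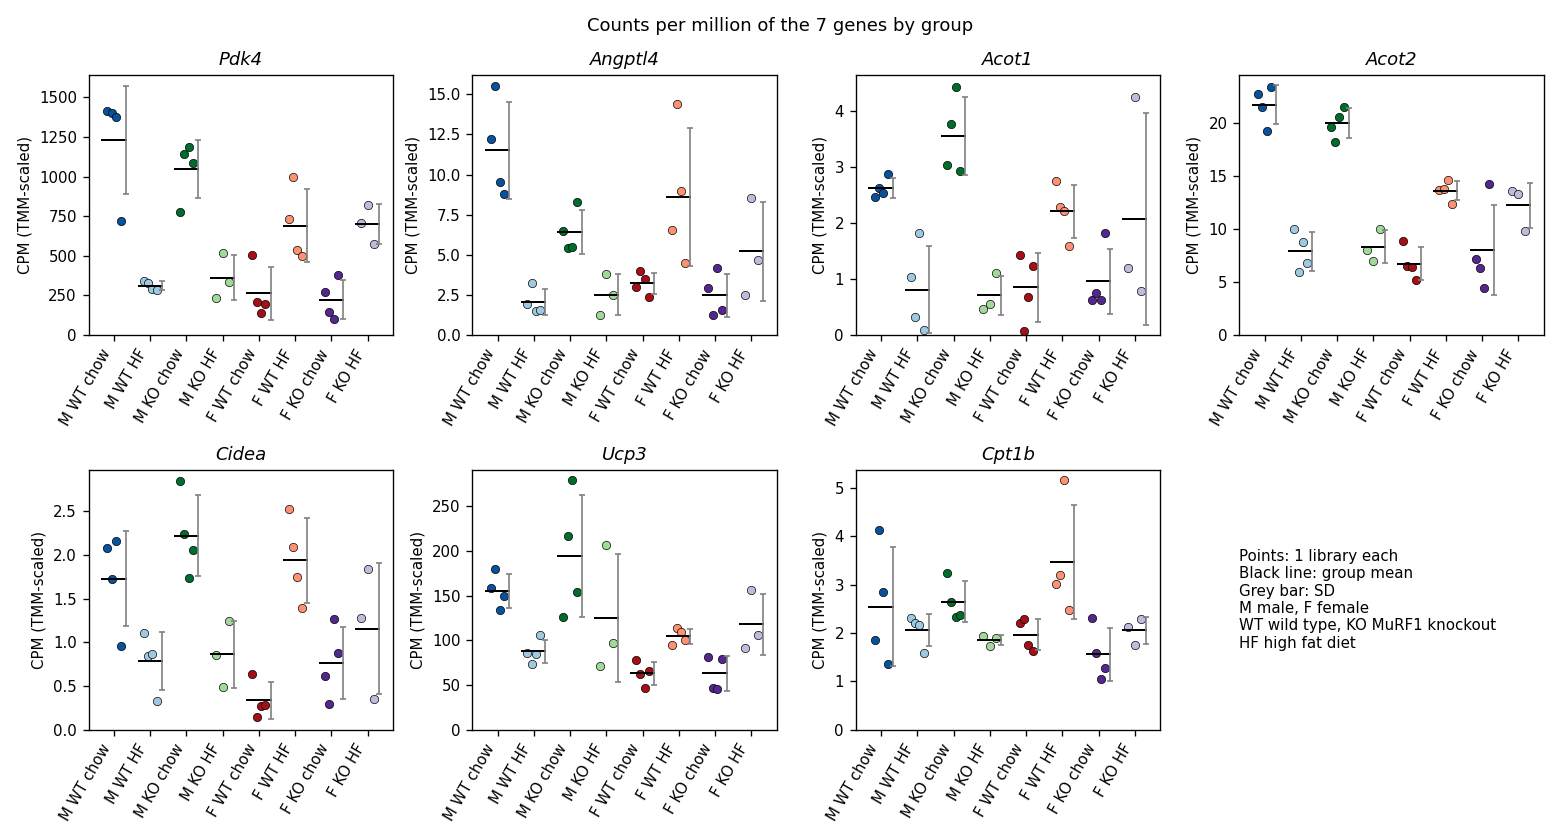
CPM of each gene (y axis, linear, from 0) in every library, by group (x axis); the black line is the group mean and the grey bar its SD. Pdk4, Acot2 and Angptl4 have their highest mean in male wild type chow, and their means in male high fat lie below those in female high fat.

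Pdk4 (ENSMUSG00000019577, chr6:5483351-5496309, mm10, minus strand) was high in chow males and low in chow females, and on high fat its means stood in the opposite order. In male wild type chow it measured 1413.9, 1403.7, 1376.8 and 719.9 CPM. In male wild type high fat it measured 343.5, 327.9, 287.9 and 284.5 CPM. The lowest chow library was above the highest high-fat library, and the log2 difference was -1.98 ± 0.39 (SE, here and below).

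Male knockouts moved the same way. Pdk4 measured 777.1, 1139.6, 1185.8 and 1085.4 CPM on chow and 234.9, 518.6 and 335.6 CPM on high fat, without overlap. It fell by 1.53 ± 0.42 on the log2 scale (edgeR quasi-likelihood test, Benjamini-Hochberg adjusted p = 0.039). That call was lost when any 1 of 6 libraries was left out, with adjusted p from 0.0565 to 0.186: male knockout chow 1, 2 or 3, or male knockout high fat 1, 2 or 3. It was also lost without the libraries whose record title gives another group (-1.47, edgeR adjusted p = 0.0714). Without the low-count filter it was lost too (-1.55, edgeR adjusted p = 0.0635).

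In female wild type chow Pdk4 measured 506.7, 209.8, 137.8 and 197.2 CPM, and on high fat 733.2, 995.2, 538.5 and 497.8 CPM. Only the first chow library reached into the range of the high-fat group. Pdk4 rose by 1.39 ± 0.38 in log2 (edgeR adjusted p = 0.0116). That call was lost with only the compared groups fitted (1.4, edgeR adjusted p = 0.0588) and with record titles as groups (1.15, adjusted p = 0.14). In female knockouts it measured 268.8, 144.0, 103.2 and 377.9 CPM on chow and 706.4, 822.7 and 572.1 CPM on high fat, without overlap. There it rose by 1.65 ± 0.41 (edgeR adjusted p = 0.00968). That call was lost without female knockout high fat 2 (1.52, edgeR adjusted p = 0.0805).

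Angptl4 (ENSMUSG00000002289, chr17:33773750-33781830, minus strand) encodes a secreted inhibitor of lipoprotein lipase. Male wild types measured 12.2, 15.5, 9.55 and 8.8 CPM on chow and 1.91, 3.26, 1.48 and 1.58 CPM on high fat, the widest of the 7 diet differences in that stratum (log2 -2.51 ± 0.40). Male knockout chow, at 6.49, 5.4, 5.47 and 8.31 CPM, lay wholly below male wild type chow, as it did for 6.27% of all genes. Male knockout high fat, at 1.24, 3.82 and 2.49 CPM, lay wholly below its chow group, with a log2 difference of -1.34 ± 0.43 that missed the threshold (edgeR adjusted p = 0.0617).

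In female wild types Angptl4 measured 2.99, 3.99, 3.49 and 2.39 CPM on chow and 6.52, 14.4, 8.95 and 4.47 CPM on high fat, without overlap. It rose by 1.42 ± 0.37 in log2 (edgeR adjusted p = 0.00806). In female knockouts it measured 2.94, 1.28, 4.16 and 1.55 CPM on chow and 2.47, 8.56 and 4.67 CPM on high fat. Those groups overlapped, and the difference of 1.07 ± 0.43 missed the threshold (edgeR adjusted p = 0.0775). Female wild type high fat thus had a mean of 8.59 CPM, second to the 11.5 CPM of male wild type chow, with overlapping ranges.

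Acot2 (ENSMUSG00000021226, chr12:83987861-83993873, plus strand) encodes a mitochondrial thioesterase that releases fatty acids from acyl-CoA, and its diet differences had the smallest standard errors of the 7. Male wild types measured 22.7, 21.5, 19.2 and 23.4 CPM on chow and 10.0, 5.99, 8.77 and 6.84 CPM on high fat (log2 -1.45 ± 0.22). Male knockouts measured 19.6, 18.2, 20.6 and 21.5 CPM on chow and 7.99, 6.95 and 10.0 CPM on high fat. The knockout groups did not overlap, and Acot2 fell by 1.26 ± 0.23 in log2 there (edgeR adjusted p = 0.00416).

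Female wild types measured 8.84, 6.51, 6.38 and 5.17 CPM of Acot2 on chow and 13.7, 13.8, 14.6 and 12.4 CPM on high fat, again without overlap. Acot2 rose by 1.01 ± 0.22 there (edgeR adjusted p = 0.00236). Female knockouts measured 7.13, 6.31, 4.44 and 14.2 CPM on chow and 13.6, 13.3 and 9.79 CPM on high fat. The library of 14.2 CPM is female knockout chow 4, whose record title gives another group. With it the difference was 0.60 ± 0.23 (edgeR adjusted p = 0.0694), and without it 1.05 (edgeR adjusted p = 0.00179).

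Acot1 (ENSMUSG00000072949, chr12:84009490-84018371, plus strand) is the cytosolic neighbour and close copy of Acot2. Their longest GENCODE M21 transcripts aligned over 882 bases with 94.6% identity, and 5.5% of the 150-base windows of Acot1 transcripts also occur in Acot2, against 10.2% the other way. Reads from those windows cannot be assigned to 1 of the genes, so both values are uncertain to that extent. In male wild type chow Acot1 measured 2.47, 2.62, 2.54 and 2.88 CPM, and in male wild type high fat 1.03, 0.315, 1.82 and 0.0834 CPM, all lower (log2 -1.65 ± 0.54).

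Male knockouts measured 3.04, 3.77, 4.42 and 2.93 CPM of Acot1 on chow and 0.465, 0.556 and 1.1 CPM on high fat. Acot1 fell by 2.31 ± 0.58 in log2 (edgeR adjusted p = 0.023), a call lost without male knockout chow 2 or 3 or male knockout high fat 1 or 2 (adjusted p 0.0585 to 0.129). In female wild types the log2 difference of 1.40 ± 0.53 missed the threshold (edgeR adjusted p = 0.0529), although the 4 high-fat libraries, at 1.59 to 2.74 CPM, lay above the 4 chow libraries, at 0.074 to 1.43 CPM. In female knockouts Acot1 measured 0.62, 0.751, 0.634 and 1.82 CPM on chow and 1.19, 4.24 and 0.793 CPM on high fat, and the overlapping groups differed by 1.08 ± 0.56 (edgeR adjusted p = 0.17). With the 2 genes' counts summed, the diet difference was -1.38 in male knockouts (edgeR adjusted p = 0.00357) and 1.06 in female wild types (adjusted p = 0.00279).

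Ucp3 (ENSMUSG00000032942, chr7:100472990-100486432, plus strand) encodes a muscle mitochondrial carrier related to the uncoupling protein of brown fat. Male wild types measured 158.3, 179.8, 133.5 and 149.8 CPM on chow and 85.9, 73.7, 85.2 and 105.6 CPM on high fat (log2 -0.83 ± 0.27). Male knockouts were the most scattered, at 126.3, 216.3, 278.9 and 154.1 CPM on chow and 71.6, 206.0 and 96.6 CPM on high fat. Their ranges overlapped through male knockout high fat 2 and the difference was -0.64 ± 0.30 (edgeR adjusted p = 0.175). Without that library it was -1.22 (edgeR adjusted p = 0.0385).

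Ucp3 in female wild types measured 77.7, 62.9, 46.5 and 65.8 CPM on chow and 94.8, 113.3, 109.7 and 100.1 CPM on high fat. The groups did not overlap, yet the log2 difference of 0.73 ± 0.28 missed the threshold (edgeR adjusted p = 0.0556). In female knockouts Ucp3 measured 81.7, 47.3, 45.2 and 78.8 CPM on chow and 91.8, 156.2 and 105.7 CPM on high fat, and rose by 0.90 ± 0.29 (edgeR adjusted p = 0.0354). That call was lost without female knockout chow 2, female knockout chow 3 or female knockout high fat 2 (adjusted p 0.0926, 0.108 and 0.289). The antisense gene Gm10603 overlaps Ucp3 but shares 0 exon bases with it.

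Cidea (ENSMUSG00000024526, chr18:67343604-67367785, plus strand) encodes a lipid droplet protein best known from fat cells. In female wild types it measured 0.641, 0.148, 0.269 and 0.287 CPM on chow and 2.53, 2.09, 1.75 and 1.39 CPM on high fat. All 4 chow libraries were below all 4 high-fat libraries, and Cidea rose by 2.50 ± 0.46 in log2 (edgeR adjusted p = 0.000648), from counts of 2 to 9 up to counts of 14 to 36. In female knockouts the groups overlapped, at 0.3 to 1.27 CPM on chow and 0.353 to 1.84 CPM on high fat (log2 0.57 ± 0.46, edgeR adjusted p = 0.388).

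Male wild types had 0.96 to 2.16 CPM of Cidea on chow and 0.333 to 1.11 CPM on high fat, a log2 difference of -1.12 ± 0.41. Male knockouts had 1.74 to 2.84 CPM on chow and 0.487 to 1.25 CPM on high fat, without overlap. Their difference of -1.35 ± 0.43 missed the threshold (edgeR adjusted p = 0.0558). Because Cidea is a fat-cell gene, adipocyte markers stand beside it: the sum of 8 of them was 185.2 to 386.6 CPM in female wild type chow and 166.6 to 267.8 CPM in female wild type high fat, with none at 0 in all libraries. Fabp4 alone, 1 of the 8, had means of 112.3 and 130.1 CPM in these groups. Of the 8, 0 were called higher and 3 lower with the diet there (12.9% and 12.5% of all genes). The 4 brown adipocyte markers summed to 0.204 to 2.31 CPM over all groups, and Ucp1 was at 0 in 28 of 30 libraries. The adipocyte sums had their highest medians, 305.2 and 380.5 CPM, in the chow females of each genotype, the 2 groups of lowest mean Cidea (0.336 and 0.767 CPM). The part of fat cells in the Cidea differences was not tested.

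Cpt1b (ENSMUSG00000078937, chr15:89416405-89425863, minus strand) encodes the muscle form of carnitine palmitoyltransferase, which admits long-chain fatty acids to the mitochondrion. In GENCODE M21, 2744 of its 3372 exon bases are also exon of the same-strand readthrough gene Gm44502. That gene is not among the identifiers counted. How reads from the shared bases were assigned is not known, so the level of Cpt1b is uncertain. In female wild types it measured 2.21, 2.29, 1.75 and 1.63 CPM on chow and 3.02, 3.2, 5.17 and 2.48 CPM on high fat, without overlap, and rose by 0.80 ± 0.27 in log2 (edgeR adjusted p = 0.0269). The call was lost without female wild type chow 3, female wild type chow 4 or female wild type high fat 3 (adjusted p 0.0744, 0.0646 and 0.16). With record titles as groups it was lost too (0.62, edgeR adjusted p = 0.257), as it was without the retitled libraries (0.85, adjusted p = 0.0598). It was also lost without 3 female chow libraries high in the skin keratin Krt10, described below (0.74, edgeR adjusted p = 0.0715). Male knockouts had 2.34 to 3.24 CPM on chow and 1.74 to 1.94 CPM on high fat, without overlap, but the difference was -0.50 ± 0.30 (edgeR adjusted p = 0.286). In female knockouts it was 0.41 ± 0.31 (edgeR adjusted p = 0.356). In male wild types it was -0.32 ± 0.27, the smallest of the 7 there, and 0.028 without 1 library, male wild type chow 2.

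Counted together, the diet differences pointed down in male knockouts and up in both female strata for all 7 genes. In male wild types, the comparison that chose the genes, the values ran from -2.51 for Angptl4 to -0.32 for Cpt1b, and nothing is read from them. In male knockouts 3 of 7 were called lower (Pdk4, Acot1 and Acot2) against 1.83% of all 14024 genes tested, and the median log2 difference was -1.34 against 0.046 for all genes.

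In female wild types 5 of 7 were called higher (all but Acot1 and Ucp3) against 12.9% of all genes, with a median of 1.39 against -0.0091. Record titles place a library of knockout-level Trim63 in each female wild-type group. With record titles as groups, 1 of 7 was called, and calls over all genes in either direction fell from 25.4% to 0.0357%. In female knockouts 2 of 7 were called higher (Pdk4 and Ucp3) against 10.4% of all genes, with a median of 0.90 against -0.0045. Without 3 female chow libraries high in the skin keratin Krt10 (20.6 to 41.7 CPM against 0.834 to 3.04 elsewhere), an exclusion added after seeing the data, 0 of 7 were called there, and calls over all genes in either direction fell from 19.2% to 0.752%. Those 3 include female knockout chow 1 and 3, so that group kept fewer of its 4 libraries. Pdk4 then gave 1.43 (edgeR adjusted p = 0.0945), against 1.65 with all libraries. Ucp3 gave 0.90 (edgeR adjusted p = 0.147), against 0.90 with all libraries.

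**Figure D2:**
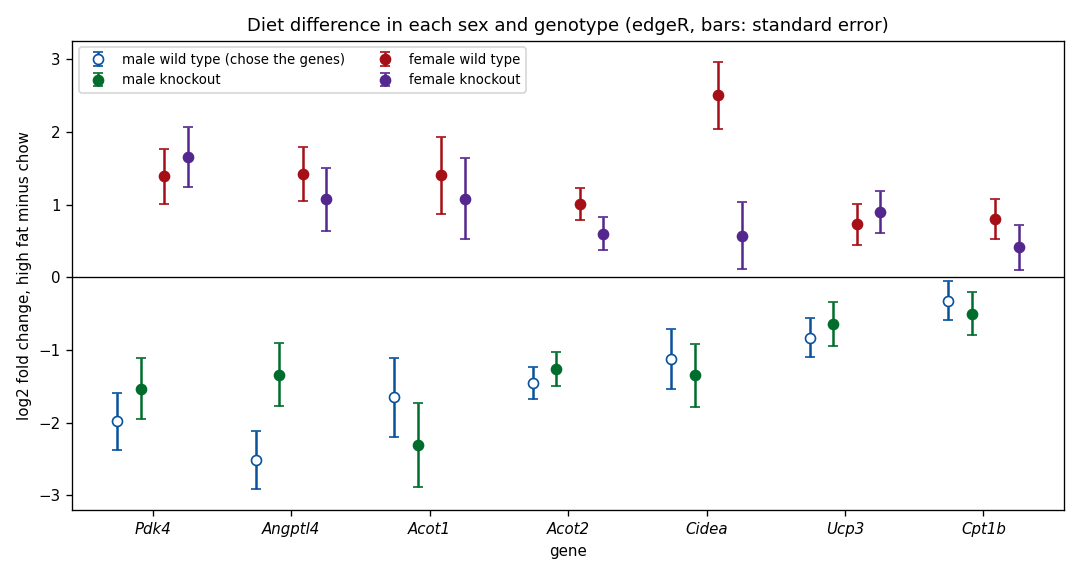
Log2 fold change of high fat against chow (y axis) for each gene (x axis), by sex and genotype; bars are standard errors and the open symbols are the comparison that chose the genes. All 7 male knockout values lie below 0 and all 14 female values above 0.

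Whether the diet difference depended on sex was tested in knockouts as the male diet difference minus the female one. It was called negative for 6 of 7 genes, against 16.0% of all genes. Pdk4 gave -3.18 ± 0.59 (edgeR adjusted p = 0.000669), Acot1 -3.38 ± 0.81 (adjusted p = 0.00307) and Angptl4 -2.40 ± 0.61 (adjusted p = 0.00463). Acot2 gave -1.86 ± 0.33 (edgeR adjusted p = 0.00032), Ucp3 -1.53 ± 0.42 (adjusted p = 0.00815) and Cidea -1.92 ± 0.63 (adjusted p = 0.0201). The Cidea call was lost without male knockout high fat 2 or female knockout high fat 2 (adjusted p 0.0584 and 0.126). Cpt1b, at -0.91 ± 0.43, missed the threshold (edgeR adjusted p = 0.0995). The same quantity in wild types contains the choosing comparison and is given without a test: it ran from -1.12 for Cpt1b to -3.93 for Angptl4, with Pdk4 at -3.38 and Cidea at -3.62.

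On chow, males had more of these RNAs than females. In knockouts 7 of 7 were called higher in males, against 19.1% of all genes, from 0.76 ± 0.28 for Cpt1b (edgeR adjusted p = 0.0302) to 2.23 ± 0.39 for Pdk4 (adjusted p = 0.000128). In each of the 7, all 4 male knockout libraries were above all 4 female ones, as they were for 21.9% of all genes. The Cpt1b call was lost without male knockout chow 1 or 2 or female knockout chow 3 or 4 (adjusted p 0.0526 to 0.101). It was also lost with record titles as groups (0.74, edgeR adjusted p = 0.0553) and without the retitled libraries (0.68, adjusted p = 0.0798). Without the female chow libraries high in Krt10, Acot1 (1.45, edgeR adjusted p = 0.0855) and Cpt1b (0.9, adjusted p = 0.0601) were not called. Calls over all genes in either direction then fell from 42.6% to 23.1%. Female knockout chow 1 and 3 were among the libraries left out, so that group was also smaller. In wild types, where the male libraries are those of the choosing comparison, the log2 values were 2.32 ± 0.46 for Cidea, 2.22 ± 0.39 for Pdk4, 1.83 ± 0.37 for Angptl4 and 1.68 ± 0.22 for Acot2. They were 1.63 ± 0.52 for Acot1, 1.30 ± 0.28 for Ucp3 and 0.38 ± 0.27 for Cpt1b, and were not tested.

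On high fat, 0 of 7 differed by sex in knockouts in edgeR, where 13.4% of all genes were called in either direction. At an unadjusted p under 0.05 there were 4, and DESeq2 called 0. The Pdk4 difference, male minus female, was -0.95 ± 0.44 (edgeR adjusted p = 0.156). With record titles as groups 2 of 7 were called (14.4% of all genes), and without the 4 retitled libraries 1 (10.4%). In wild types, not tested for the same reason as on chow, all 7 values were below 0. They were -2.10 ± 0.41 for Angptl4, -1.42 ± 0.55 for Acot1, -1.31 ± 0.41 for Cidea and -1.15 ± 0.38 for Pdk4, and from -0.78 ± 0.22 to -0.25 ± 0.27 for Acot2, Cpt1b and Ucp3.

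The effect of MuRF1 loss could be tested in females. The edgeR test called 0 of 7 genes in chow females, where 0.0927% of all genes were called, and 0 of 7 in high-fat females, where 0.0713% were. At an unadjusted p under 0.05 there was 1 in each, Cidea on chow (1.17 ± 0.51) and Cpt1b on high fat (-0.74 ± 0.29), and DESeq2 called 0 of 7 in each. In males the values are given without a test. Angptl4 in chow males had a mean of 6.42 ± 1.36 CPM in knockouts (SD, n = 4) and 11.5 ± 3.03 CPM in wild types (SD, n = 4), with no overlap, and a log2 difference of -0.84 ± 0.35. Those wild types are the chow arm of the comparison that chose the genes. Acot1 did not overlap either, but was higher in knockouts (0.43 ± 0.45). Of all genes, 6.27% lay wholly below in knockouts and 4.05% wholly above. Pdk4 gave -0.23 ± 0.38 in chow males and 0.22 ± 0.41 in high-fat males. The diet difference was not called different between genotypes in females for any gene (0 of 7 in edgeR, 0.0143% of all genes; 1 at an unadjusted p under 0.05, Cidea; 0 in DESeq2, where 4 of 7 had no adjusted p). The largest of these was Cidea, at -1.93 ± 0.66 (edgeR adjusted p = 0.846).

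Other genes of the pathway were taken from lists set out with earlier results of these data known. Of 34 other PPAR target genes of fat handling tested, 14 rose and 0 fell with the diet in female wild types (12.9% and 12.5% of all genes), with a median log2 difference of 0.32 against -0.0091 for all genes. Among them were the fatty acid binding protein gene Fabp3 (1.45 ± 0.35, edgeR adjusted p = 0.00558), Ech1 (0.86 ± 0.16, adjusted p = 0.000856) and the lipase gene Pnpla2 (0.80 ± 0.13, adjusted p = 0.000264). In male knockouts 0 rose and 7 fell (4.01% and 1.83% of all genes), with a median of -0.31 against 0.046, and Fabp3 fell by 1.49 ± 0.38 (edgeR adjusted p = 0.0287). In female knockouts 3 rose and 1 fell (10.4% and 8.79%), and in male wild types 0 rose and 0 fell (0.164% and 0.185%). On chow, 12 were higher and 4 lower in male than in female knockouts (19.1% and 23.5%).

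The receptor gene Ppara went the other way from Pdk4 with the diet in knockouts. Ppara rose by 1.38 ± 0.38 in log2 with the diet in male knockouts (edgeR adjusted p = 0.0358), where Pdk4 fell. It fell by 1.68 ± 0.39 in female knockouts (edgeR adjusted p = 0.00685), where Pdk4 rose. Of 15 receptor and partner genes, 3 rose and 0 fell in male knockouts (4.01% and 1.83% of all genes), 2 rose and 6 fell in female wild types (12.9% and 12.5%), and 2 rose and 6 fell in female knockouts (10.4% and 8.79%). Of 20 relatives of the 7 genes, 2 rose and 2 fell in male knockouts, 2 rose and 2 fell in female wild types, and 2 rose and 4 fell in female knockouts. Among them Pdk2, another pyruvate dehydrogenase kinase gene, fell by 0.60 ± 0.11 in male knockouts (edgeR adjusted p = 0.00354). Pdk2 rose by 0.60 ± 0.10 in female wild types (edgeR adjusted p = 0.000355) and by 0.55 ± 0.11 in female knockouts (adjusted p = 0.00218). Angptl7, a relative of Angptl4, went the other way: it rose by 1.58 ± 0.43 in male knockouts (edgeR adjusted p = 0.037). It fell by 1.29 ± 0.44 in female wild types (edgeR adjusted p = 0.0357) and by 1.54 ± 0.45 in female knockouts (adjusted p = 0.0217).

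Genes whose pattern over the 30 libraries was most like the mean of the 7 were found by Pearson correlation of log2 CPM, as a description without a test. The carnitine carrier gene Slc25a20, Fabp3, Ech1 and the acetylcholine receptor subunit gene Chrna2 came first (0.90 each), then Elmod3 (0.89), the lipid droplet gene Plin5 and the malonyl-CoA decarboxylase gene Mlycd (0.87 each). These libraries share the 8 groups, which sets much of the correlation. After group means were subtracted, 3 of the 10 nearest genes stayed among the nearest 10, and the peroxisomal enzyme gene Hsd17b4 came first (0.82). Among the 7 themselves and within groups, Pdk4 went most with Ucp3 (0.67) and Acot2 (0.55), and Angptl4 with Acot2 was -0.25.

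Clock genes moved with some of these groups. In male wild types Dbp, a clock output gene, measured 11.9, 15.3, 11.0 and 78.1 CPM on chow and 47.2 to 110.5 CPM on high fat. In female knockouts it measured 89.3 to 104.4 CPM on chow and 12.2 to 13.8 CPM on high fat. In those strata the libraries high in Pdk4 were mostly low in Dbp, and male wild type chow 4, with Dbp at 78.1 CPM, had the lowest Pdk4 of its group, at 719.9 CPM. In male knockouts Dbp and Pdk4 were both higher on chow, with mean Dbp at 75.9 CPM on chow and 47.1 CPM on high fat. In female wild types Dbp measured 31.7 to 66.0 CPM on chow and 13.4 to 75.7 CPM on high fat. Of 19 clock genes tested, 5 rose and 10 fell with the diet in female knockouts (10.4% and 8.79% of all genes), 1 rose and 0 fell in male knockouts (4.01% and 1.83%), and 1 rose and 2 fell in female wild types (12.9% and 12.5%). In male wild types 3 rose and 0 fell (0.164% and 0.185%), namely Tef, Usp2 and Per2. The part of the time of day in the group differences was not tested.

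**Figure D3:**
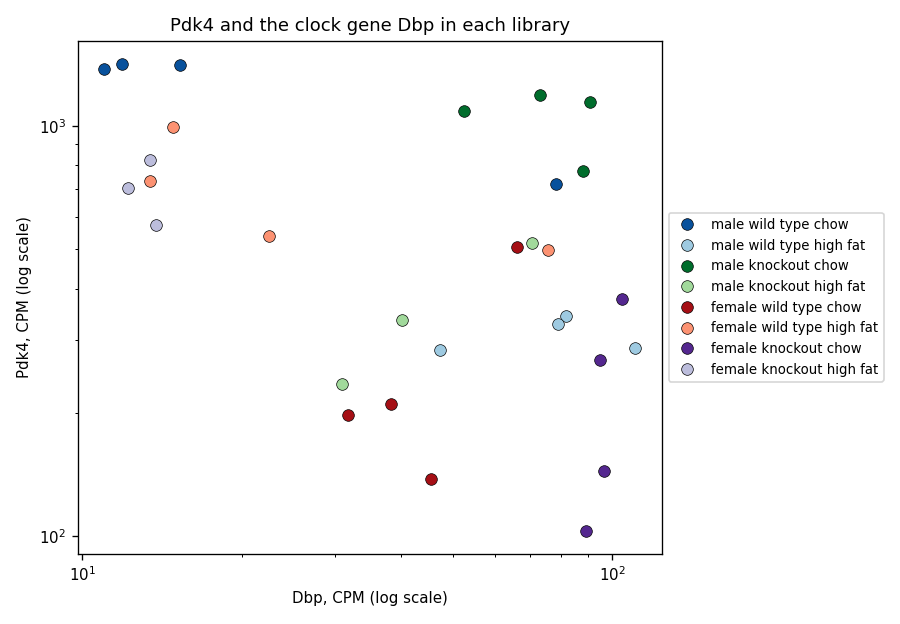
Pdk4 (y axis) against the clock gene Dbp (x axis), both in CPM on log scales, 1 point per library, coloured by group. The 4 male knockout chow libraries sit at 777.1 to 1185.8 CPM of Pdk4 with Dbp at 52.4 to 90.6 CPM, and the 3 male wild type chow libraries low in Dbp sit at 1376.8 to 1413.9 CPM.

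Sums of cell-type marker RNA also differed between the groups. Myofibre markers summed to 117970.8 to 122409.4 CPM in female knockout chow and 164797.7 to 186663.8 CPM in female knockout high fat, and to 123216.1 to 141590.6 and 148329.4 to 179725.7 CPM in the female wild types. In male knockouts they summed to 178453.3 to 223027.5 CPM on chow and 147092.4 to 152388.0 CPM on high fat. Tendon markers summed to 163.1 to 305.4 CPM in chow females and 35.7 to 89.6 CPM in chow males. The groups high in Pdk4 were thus also those with more myofibre marker RNA in 3 of these strata. In male wild types, whose diet comparison chose the genes, the myofibre sums were 148934.0 to 189810.8 CPM on chow and 126728.2 to 168281.1 CPM on high fat, which overlap. The part of tissue make-up in the differences was not tested.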

How the data were processed

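RNA was sequenced from 31 gastrocnemius libraries with a stranded polyA kit and 150 bp paired reads, per the labels' protocols. The authors deposited raw counts per Ensembl gene. The tools were bcl2fastq and featureCounts with build mm10, per the submitters' processing notes. The aligner, annotation release and strand setting were not given in the sources used here. Symbols and coordinates come from GENCODE M21, which held 37607 of 39017 identifiers. The animal numbers in title and description differ in 19 records. A library's group is that of the title carrying its file's animal number, and 1 library, whose animal is in no title, was left out.

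Differences were tested with edgeR 4.0.16 (quasi-likelihood, robust, TMM, filterByExpr with a minimum count of 10, 14024 genes, 1 coefficient per group) and adjusted by Benjamini-Hochberg within each contrast at 0.05. Standard errors are the log2 difference divided by the square root of F. DESeq2 1.42.0, other scaling, no filter, a replicate block, groups fitted alone, other groupings and left-out libraries were alternatives. The fit was tested on simulated data. The common dispersion was 0.0202, a coefficient of variation of 14.2%. Over 42 pairs of libraries within groups, 0 were identical. A count of 3 corresponds to 0.201 to 0.321 CPM, and covers counting error only.

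The 7 genes and all gene lists were chosen with earlier results of these data known. Comparisons with a wild-type male group, planned as tests, are given for the 7 genes without one, since their libraries chose the genes. Named genes are the 7, the genes of each list called in a comparison (at most 4 by smallest p), the genes most like the 7 (predicted genes left out), and genes that check genotype, sex, clock and tissue.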

Additional observations from a re-analysis of the deposited data

Results flagged for a closer look

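Among 42 sets of 4 libraries from 1 group, 1 set per gene and group, 2 had a lowest or highest library far from the others by Dixon's criterion, and chance flags about 1 in 20. Pdk4 in male wild type chow 4 was 719.9 CPM, with the other libraries at 1376.8 to 1413.9 CPM. Acot1 in female knockout chow 4 was 1.82 CPM, with the others at 0.62 to 0.751 CPM; this library's record title gives another group.

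The diet difference in knockouts differed between males and females in edgeR's interaction test for 6 of the 7 genes: the log2 values were -3.18 for Pdk4, -2.40 for Angptl4, -3.38 for Acot1, -1.86 for Acot2, -1.92 for Cidea and -1.53 for Ucp3. The library in no group had 107.1 CPM of Trim63, scaled by its total only. That is just below the lowest grouped wild type (107.3 CPM, scaled by TMM) and above the highest knockout (7.75 CPM). Its own title places it in male knockout high fat.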

How the results depend on the processing

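The number of the 7 genes called moved by over 1.5 times in these cases. For diet in male knockouts it was 3 and became 1 without the count filter, 5 with the replicate block, 5 with only the compared groups fitted and 5 in DESeq2. For diet in female wild types it was 5 and became 1 with record titles as groups. For diet in female knockouts it was 2 and became 1 without the count filter and 0 without the 3 libraries high in Krt10. Those 3 include female knockout chow 1 and 3. For sex in high-fat knockouts it was 0 and became 2 with record titles as groups and 1 without the retitled libraries. The cause of these moves was not tested.

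Leaving out 1 library at a time gave 1 to 4 for diet in male knockouts, 4 to 7 for diet in female wild types, 0 to 3 for diet in female knockouts, 0 to 1 for sex in high-fat knockouts, 6 to 7 for sex in chow knockouts and 5 to 7 for the sex difference of the diet response in knockouts. The count was 1 without male knockout chow 2, male knockout chow 3 or male knockout high fat 1 (diet in male knockouts), and 0 without female knockout high fat 2 (diet in female knockouts). Of the values given without a test, 16 moved by more than their standard error under an alternative. Cpt1b for diet in male wild types ran from -0.52 to 0.028 as single libraries were left out. Replicate numbers were not used as a pairing in the main fit. Over 99 pairs with the same number the correlation of deviations ran from -0.318 to 0.457, with a median of 0.0265. Over 294 other pairs the median was -0.00636. Of 30 libraries, 13 went best with their own number. Whether libraries of the same number share a source of variation was not tested. With the replicate block, 5 genes instead of 3 were called for diet in male knockouts, and 3 instead of 2 for diet in female knockouts. Depth limits Acot1, Cidea and Cpt1b most, at 1 to 60 counts per library.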

Other observations

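The library in no group had Ddx3y at 51.7 CPM of its total count and Xist at 0.0954 CPM. Its Pdk4 was 506.5 CPM, Ucp3 106.9 CPM, Acot2 7.63 CPM, Angptl4 3.62 CPM, Cpt1b 2.1 CPM, Acot1 0.668 CPM and Cidea 0.381 CPM. These values are of 1 library, scaled by its total only.

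Of 13 fatty acid synthesis genes tested, 1 was higher and 6 lower in chow males than in chow females in wild types (5.51% and 6.53% of all genes), and 2 were higher and 8 lower in knockouts (19.1% and 23.5%), with median log2 differences of -0.94 and -0.88 against 0.00087 and -0.035 for all genes. Adipocytes also express many of these genes: of 8 adipocyte markers, 5 were lower in wild-type and 7 in knockout males, with medians of -1.49 and -2.63. Their part in the difference was not tested. With the diet in female wild types, the carboxylase gene Acaca fell by 1.05 ± 0.29 in log2 (edgeR adjusted p = 0.0128) and the elongase gene Elovl6 by 1.68 ± 0.48 (adjusted p = 0.0127), while Mlxipl rose by 0.51 ± 0.10 (adjusted p = 0.00138).

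Of 23 FoxO and glucocorticoid responsive genes, a set to which Pdk4 and Angptl4 are often assigned, 2 rose and 6 fell with the diet in male knockouts (4.01% and 1.83% of all genes). Cebpd fell by 1.93 ± 0.42 in log2 (edgeR adjusted p = 0.0126) and Txnip by 0.69 ± 0.13 (adjusted p = 0.00528). In female knockouts 1 rose and 4 fell (10.4% and 8.79%), and the ubiquitin ligase gene Fbxo32 rose by 1.08 ± 0.17 (edgeR adjusted p = 0.000562). In chow males 9 were higher and 1 lower in knockouts than in wild types (1.63% and 5.31% of all genes). The 1 lower gene was Trim63, the gene of MuRF1 itself, so its call follows from the genotype.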
